A study of Mus musculus with 10 samples.

Results

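The mitochondrial carriers of the Slc25 family are membrane proteins that move metabolites, nucleotides, cofactors and metals across the inner mitochondrial membrane. Their transcripts were followed in the liver of female C57BL/6J mice (B6) and female DBA/2J mice (D2), a pair of inbred strains. The members were all genes whose symbol begins with Slc25a, except Slc25a20, that had a probe set naming no other gene. Where a gene had several such probe sets, the one with the highest mean over all arrays was used. This gave 43 carrier genes, read by 91 probe sets, of 18193 genes on the array. A filter on low signal kept 36 of the 43, among 11061 genes in all.

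The mice ate a diet high in fat and cholesterol for 0, 1, 4, 12 or 21 weeks, and neither strain carried a transgene or received another agent, as far as the labels say. For every strain at every week, equal amounts of liver RNA from 5 mice went into 1 pool and onto 1 Affymetrix Mouse Genome 430 2.0 array, 10 arrays in all. Each strain had 1 array at week 0 and 4 fed arrays, and no array of another diet stood beside the later weeks. Ages are not given in the sources used here, and time on the diet and age moved together. The pools were therefore not repeated at any week: the weeks served as replicates, the spread includes time on the diet, and the p-values measure the spread between pools.

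A carrier of this family is a bundle of membrane helices that opens in turn to either side of the inner membrane and usually exchanges one substrate for another. In hepatocytes these exchanges link the cytosol to the matrix in the urea cycle, in gluconeogenesis, in the malate-aspartate shuttle, in the export of citrate for fatty acid and cholesterol synthesis, and in the supply of ADP and phosphate to ATP synthase. A few members lie elsewhere, such as Slc25a17 in the peroxisome and Slc25a46 in the outer mitochondrial membrane.

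Levels are given as log2 of the quantile-normalised signal plus a pseudocount of 1.05. Differences are on the same scale, which understates the change of dim genes, and the number of arrays limits the precision. A gene passed a test at an adjusted p below 0.05 (limma, Benjamini-Hochberg over 11061 genes). The 2% trimmed mean of the deposited signals ranged from 56.2 to 89.1 and was lowest in both week 0 arrays, at 56.2 in B6 and 56.9 in D2. Arrays of a strain correlated at 0.911 to 0.982. The summed signal of 8 hepatocyte markers lay between 15.61 and 15.66 in all arrays. Quantile normalisation gives every array the same set of values, so a sum of bright genes stays nearly even. This sum therefore does not measure how much hepatocyte RNA a pool held. Macrophage markers (11 of 11 above the filter) summed to 11.68 to 14.03 in B6, highest at week 4, and to 11.69 to 12.21 in D2. Stellate cell markers (7 of 8 above the filter, Timp1 below it) summed to 9.29 to 11.31 in B6, again highest at week 4, and to 8.59 to 9.31 in D2. In such bulk tissue, fewer cells of a type and less RNA per cell cannot be told apart.

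The 36 carriers above the filter comprised 3 of tricarboxylates and keto acids, 7 of amino acids, 8 of nucleotides and phosphate, 10 of cofactors and metals, 3 that resemble uncoupling proteins, and 5 whose substrate is unknown or only lately proposed. The 7 below the filter were Slc25a2, Slc25a18, Slc25a31, Slc25a35, Slc25a41, Slc25a53 and Slc25a54, which include the ADP/ATP carrier of germ cells (Slc25a31) and a second ornithine carrier (Slc25a2). Their means ranged from 1.82 to 3.50 against a filter at 3.74, and the brightest single array among them read 4.33. They were left out of the main tests and fitted only as an alternative without the filter, over 18193 genes. There Slc25a31 passed the strain difference, at 2.39 ± 0.39 (adjusted p = 0.0112, limma), as did 749 of the 18193 genes. The other 6 passed no comparison. Slc25a31 read 0.75, 0.66, 1.90, 1.82 and 2.08 in B6 and 3.62, 4.15, 4.05, 3.62 and 3.69 in D2, without overlap. These levels are dim, B6 lying well below the filter and D2 close to it, so the size of the difference depends on the pseudocount. The most even carriers included Slc25a39, a glutathione carrier, at 12.26 to 12.48 over the 10 arrays, and Slc25a47, a liver-enriched carrier, at 11.73 to 12.09. The probe sets of Slc25a39, Slc25a47 and Slc25a5 are of kinds that, by the array's naming, may bind other transcripts too, so their levels are uncertain. The median SD of a carrier over the arrays was 0.32, against 0.28 for all genes tested.

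**Figure D1:**
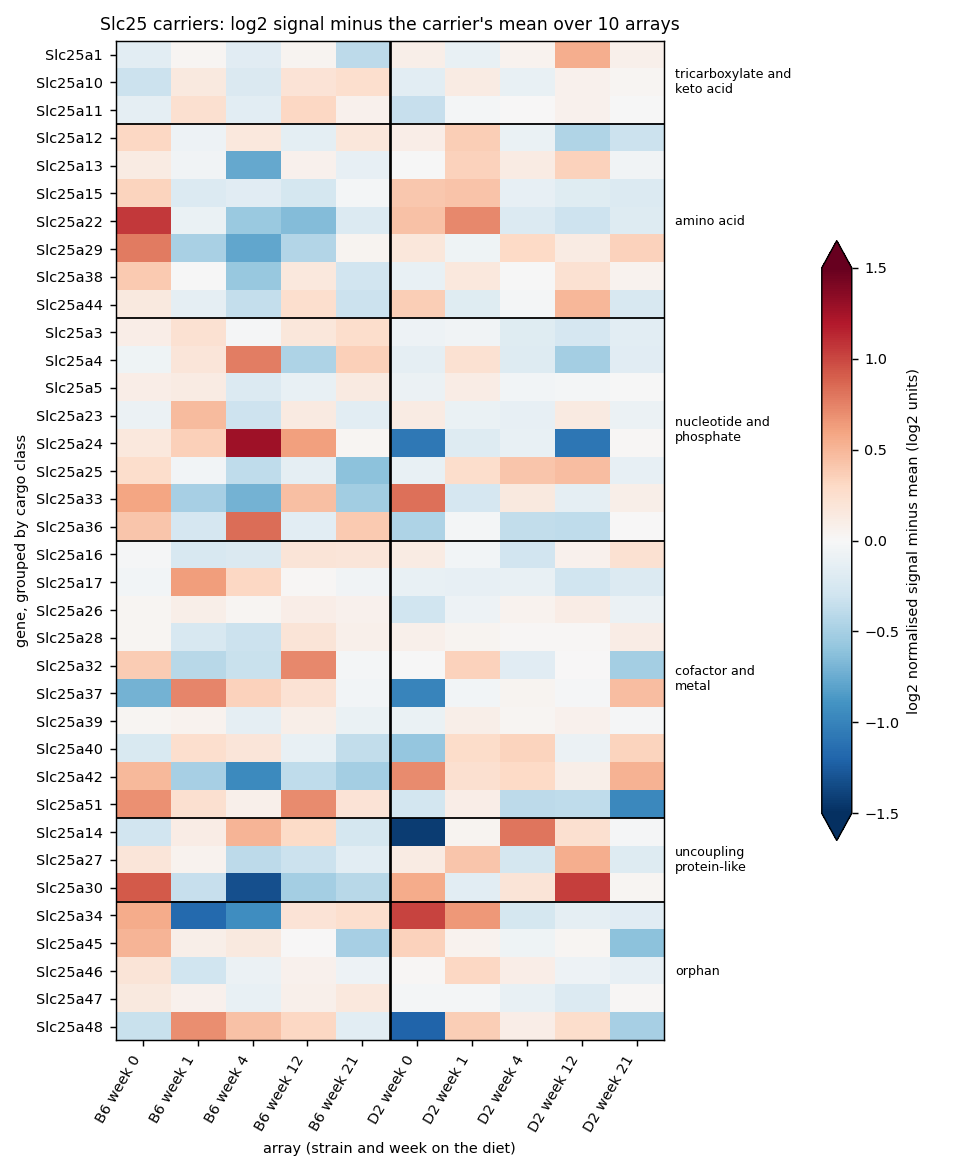
Heat map of the 36 carriers above the filter. Rows are genes grouped by cargo class, columns are the 10 arrays by strain and week, and colour is the log2 signal minus the gene's own mean over the arrays. The B6 week 4 column holds the lowest level of 12 of the 36 carriers, and Slc25a37 is low in both week 0 columns.

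Promoter sequence was set beside the carriers whose values the text turns on. The RefSeq promoter table (GRCm38.p6) held 33 of the 43 carriers, in 42 windows of 250 bases before a transcription start. It held neither Slc25a37 nor Slc25a51. Windows are shown for carriers that passed a test, or whose fed and week 0 arrays did not overlap, and that the table holds. Capitals mark 4 short motifs searched on both strands: TGCGCA (bound by NRF1), CCGGAAG (bound by GABPA), CACGTG (the E-box of basic helix-loop-helix factors) and AGGTCA (a nuclear receptor half-site). Each run is written 5′ to 3′ on the gene's strand and ends at the base before the start.
Slc25a3, phosphate carrier, chr10:91123968-91124217, minus strand: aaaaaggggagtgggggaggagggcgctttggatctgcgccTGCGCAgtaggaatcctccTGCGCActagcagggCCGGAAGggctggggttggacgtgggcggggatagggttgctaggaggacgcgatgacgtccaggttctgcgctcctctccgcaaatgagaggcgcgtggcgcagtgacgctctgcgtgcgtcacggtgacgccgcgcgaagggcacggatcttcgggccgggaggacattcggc
Slc25a42, coenzyme A carrier, chr8:70212282-70212531, minus strand: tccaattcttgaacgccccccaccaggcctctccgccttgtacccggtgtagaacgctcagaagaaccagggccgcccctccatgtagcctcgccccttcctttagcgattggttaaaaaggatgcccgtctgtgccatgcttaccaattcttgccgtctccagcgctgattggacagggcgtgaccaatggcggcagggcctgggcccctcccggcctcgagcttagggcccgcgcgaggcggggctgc
Slc25a33, pyrimidine nucleotide carrier, chr4:149774268-149774517, minus strand: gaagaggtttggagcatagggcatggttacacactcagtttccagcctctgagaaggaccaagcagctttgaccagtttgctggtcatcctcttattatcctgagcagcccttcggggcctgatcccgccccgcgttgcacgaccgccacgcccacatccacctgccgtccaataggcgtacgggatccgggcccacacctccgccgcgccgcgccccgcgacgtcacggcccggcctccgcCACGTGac
Slc25a14, uncoupling protein-like carrier, chrX:48623198-48623447, plus strand: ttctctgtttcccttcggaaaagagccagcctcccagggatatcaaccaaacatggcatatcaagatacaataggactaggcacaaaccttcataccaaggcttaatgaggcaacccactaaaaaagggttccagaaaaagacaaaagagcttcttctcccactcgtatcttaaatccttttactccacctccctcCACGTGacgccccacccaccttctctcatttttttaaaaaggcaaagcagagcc
Slc25a45, carrier with no long-settled substrate, chr19:5877572-5877821, plus strand: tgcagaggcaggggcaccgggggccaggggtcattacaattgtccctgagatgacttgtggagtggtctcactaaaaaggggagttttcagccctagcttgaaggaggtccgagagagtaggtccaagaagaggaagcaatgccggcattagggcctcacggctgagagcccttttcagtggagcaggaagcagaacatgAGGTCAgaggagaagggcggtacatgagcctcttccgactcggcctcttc

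The Slc25a3 window held TGCGCA beginning 209 and 190 bases before the start and CCGGAAG at 175. The Slc25a33 window held an E-box at 8 bases before the start, that of Slc25a14 at 54, and the Slc25a45 window held AGGTCA at 50. None of the 4 motifs was found in the Slc25a42 window. Over all carrier windows, the E-box lay in 8 of 42 (19%), those of Slc25a1, Slc25a13, Slc25a14, Slc25a15, Slc25a31, Slc25a33 and Slc25a36, against 6.0% of 32841 promoter windows of the same length. The 8 windows include overlapping ones of Slc25a14 that share an E-box. TGCGCA lay in 7.1% of the carrier windows (6.4% of all), CCGGAAG in 11.9% (6.9%) and AGGTCA in 9.5% (14.0%). The carrier windows had a median GC content of 58.2% and 12 CpG dinucleotides, against 52.4% and 6 over all windows. These matches are descriptions of the letters, and binding was not measured.

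The first comparison asked which carriers differed between the strains, with each week's B6 and D2 pools set against each other. Slc25a42, the coenzyme A carrier, was higher in D2, while Slc25a51, the NAD carrier, and Slc25a3, the phosphate carrier that feeds ATP synthase, were lower in D2. These 3 of 36 carriers (8.33%) passed, against 7.97% of all genes tested (882 of 11061), a share near the background. Upward, 1 carrier passed, against 3.91% of all genes, and downward 2, against 4.07%. An unadjusted p below 0.05 was found for 9 carriers (25%), against 23.9% of all genes. Of the 36 carriers, 18 were higher and 18 lower in D2. Their median difference was 0.00, against 0.01 over all genes, and the median size of the difference was 0.17, against 0.19.

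Slc25a51 (probe set 1433816_at) stood at 9.66, 9.22, 9.05, 9.69 and 9.18 in B6 at weeks 0, 1, 4, 12 and 21, and at 8.70, 9.07, 8.58, 8.59 and 8.01 in D2. D2 was the lower strain at each of the 5 weeks, but the strains overlapped, since D2 at week 1 lay just above B6 at week 4. The means were 9.36 ± 0.29 in B6 and 8.59 ± 0.38 in D2 (SD, n = 5 each). The difference was −0.77 ± 0.16 (SE, adjusted p = 0.0244, limma), and all 3 probe sets of the gene read lower in D2, by −0.77, −0.51 and −0.57. With either array of weeks 0, 12 or 21 left out, the call was lost (adjusted p up to 0.0888, limma). With week as a block, an array left out takes its partner of that week out of the strain difference too. Such a fit thus rests on the pairs of the other weeks. The adjusted p ranged from 0.00271 to 0.166 over the alternatives.

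Slc25a42 (probe set 1424790_at) read 8.59 in B6 before the diet and 7.60, 7.14, 7.71 and 7.58 in the fed pools. In D2 it read 8.80 at week 0, then 8.34, 8.39, 8.18 and 8.62. D2 was higher at each of the 5 weeks, least so at week 0, and the strains overlapped through the B6 week 0 array alone. The difference was 0.74 ± 0.15 (SE, adjusted p = 0.0255, limma), with means of 7.73 ± 0.53 in B6 and 8.47 ± 0.24 in D2 (SD, n = 5 each). Leaving out any fed array, and with it its week's pair, ended the call (adjusted p up to 0.0954, limma). Over all alternatives the adjusted p ranged from 0.0190 to 0.164.

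Slc25a3 (probe set 1416300_a_at) varied little within a strain, at 11.50, 11.64, 11.39, 11.57 and 11.67 in B6 and 11.33, 11.36, 11.22, 11.15 and 11.25 in D2. Every D2 array lay below every B6 array. The difference was small, −0.29 ± 0.07 (SE, adjusted p = 0.0381, limma). The call was lost with any 1 array, and so its week's pair, left out (adjusted p 0.0561 to 0.134, limma). It was lost without the filter (0.0848), with the mean of probe sets (0.0693) and without a variance trend (0.126). It was also lost on the deposited scale, where the difference was −0.29 (0.0989), and with each array centred on its median, where it was −0.19 (0.366; range over all alternatives 0.0280 to 0.366).

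Among carriers of tricarboxylates and keto acids, none passed. Slc25a1, which brings citrate to the cytosol for lipid synthesis, differed by 0.26 ± 0.11 (adjusted p = 0.179, limma) and was the higher in D2 at 4 of 5 weeks. Slc25a10, the dicarboxylate carrier, and Slc25a11, the oxoglutarate carrier of the malate-aspartate shuttle, differed by −0.02 ± 0.09 and −0.13 ± 0.09. Of the 7 amino acid carriers 6 had a positive difference, with a median of 0.17, and none passed. The pair of aspartate-glutamate carriers went in opposite directions without passing: Slc25a13 (citrin), the main liver form, by 0.30 ± 0.14 and Slc25a12 (aralar) by −0.16 ± 0.14.

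Of the 8 nucleotide and phosphate carriers 6 were lower in D2, Slc25a3 being the member that passed. Slc25a24, a calcium-regulated carrier of ATP-Mg and phosphate, read 4.63, 4.83, 5.75, 5.08 and 4.50 in B6 and 3.40, 4.27, 4.35, 3.39 and 4.49 in D2. The strains did not overlap, although the lowest B6 array and the highest D2 array were only just apart. The difference was −0.97 ± 0.27 (adjusted p = 0.0700, limma), and with a pseudocount of 16 it shrank to −0.58. Its relative Slc25a25 differed the other way, by 0.37 ± 0.16 (adjusted p = 0.206, limma). The ADP/ATP carriers are the most studied members of the family, and neither passed: Slc25a4 differed by −0.31 ± 0.16 (adjusted p = 0.290, limma) and Slc25a5 by −0.02 ± 0.07. The other probe sets of Slc25a4 above the filter read −0.68 and −0.63. Slc25a36, a pyrimidine nucleotide carrier, differed by −0.50 ± 0.21 (adjusted p = 0.204, limma). Slc25a24, Slc25a36 and Slc25a4 had their highest level in the B6 week 4 array, in which the macrophage and stellate sums above were also highest. The part of those cells in these levels was not tested.

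Among the remaining cofactor and metal carriers, Slc25a17, a peroxisomal cofactor carrier, read 6.85 to 7.53 in B6 and 6.60 to 6.80 in D2, without overlap. Its difference of −0.34 ± 0.12 did not pass (adjusted p = 0.137, limma). Slc25a28, the iron carrier mitoferrin 2, differed by 0.10 ± 0.11. Slc25a30, an uncoupling protein-like carrier, had a difference of 0.67 ± 0.28 (adjusted p = 0.189, limma), and its 4 probe sets above the filter read 0.66 to 0.69. Without the B6 week 4 and D2 week 12 arrays, a setting chosen after seeing the data, it was 0.09. With week as a block, this setting takes weeks 4 and 12 out of the strain difference, so the value rests on weeks 0, 1 and 21. Slc25a3, Slc25a17 and Slc25a24 were the carriers whose strains did not overlap, 3 of 36 (8.33%) against 8.3% of all genes. All 3 were lower in D2 (4.13% of all genes), and none was higher without overlap (4.17%). A difference of the same direction at all 5 weeks was found for 7 carriers (19.4%), against 22.8% of all genes.

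**Figure D2:**
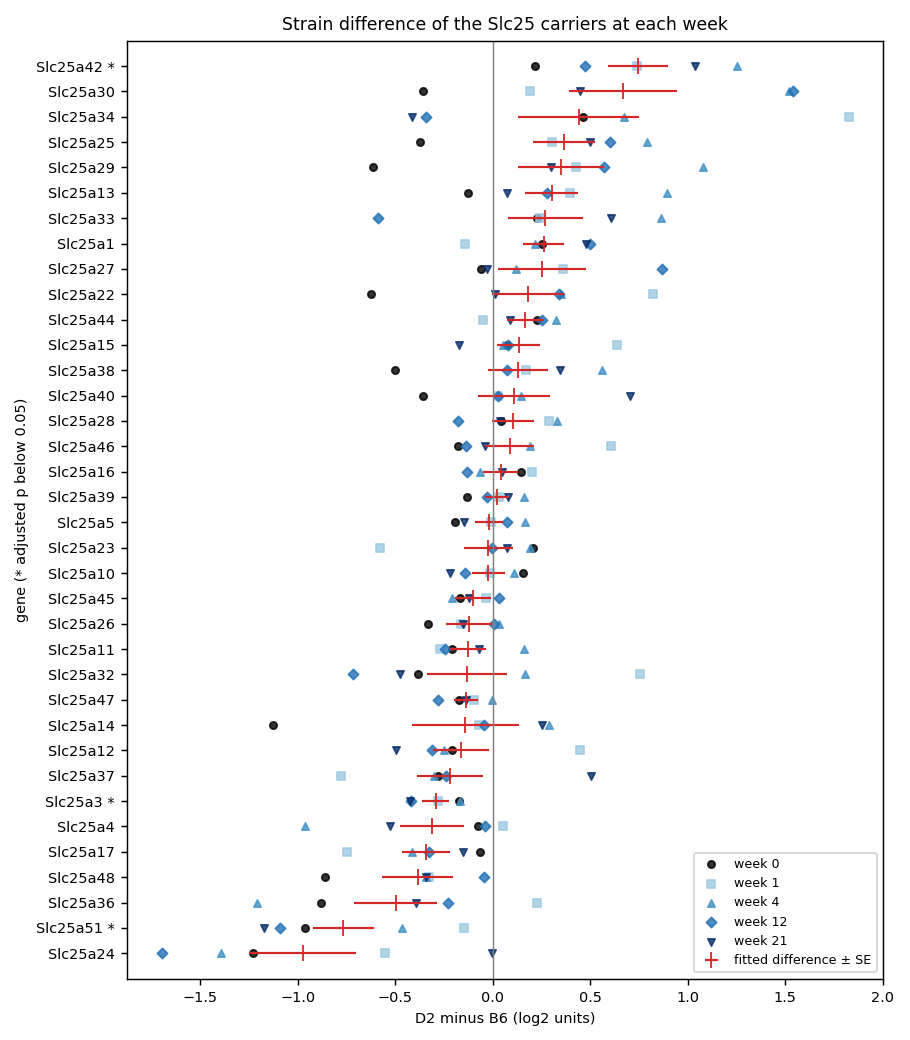
D2 minus B6 for each carrier above the filter, in log2 units, with 1 point for each week and a red mark for the fitted mean difference, whose bar is ± 1 SE; asterisks mark the 3 carriers that passed. Slc25a51 and Slc25a3 lie to the left of 0 at all 5 weeks and Slc25a42 to the right.

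The second comparison asked which carriers changed on the diet, over both strains, between the 2 arrays of week 0 and the 8 fed arrays. Slc25a37, which encodes the iron importer mitoferrin 1 known from red cell precursors, rose. It was the 1 carrier of 36 to pass (2.78%), against 0.651% of all genes (72 of 11061), 0.416% upward and 0.235% downward. Below the adjusted threshold, 13 carriers (36.1%) had an unadjusted p below 0.05, against 17.4% of all genes. Of the 36, 13 had a positive and 23 a negative difference, with a median of −0.07 (0.01 over all genes) and a median size of 0.24 (0.20 over all genes).

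Slc25a37 (probe set 1417750_a_at) stood at 6.76 at week 0 in B6 and at 8.20, 7.82, 7.69 and 7.43 at weeks 1, 4, 12 and 21. In D2 it stood at 6.48 at week 0 and at 7.42, 7.51, 7.45 and 7.93 afterwards. All 8 fed arrays lay above both week 0 arrays, at 7.42 or more against 6.76 or less. The change was 1.06 ± 0.19 (SE, adjusted p = 0.0399, limma), and 1.02 ± 0.28 in B6 and 1.10 ± 0.28 in D2 taken alone. The gene had 1 probe set, so no second reading was at hand. Of 4 erythroid markers measured, Hba-a1, Slc4a1 and Epb42 were below the filter. Alas2 lay above it and differed by 0.02 over both strains, by 0.65 in B6 and by −0.62 in D2. The summed signal of the 4 was 6.55 at week 0 and 6.73 to 7.27 when fed in B6. In D2 it was 7.42 at week 0 and 6.50 to 7.04 when fed. The part of red cell precursors in the rise of Slc25a37 was not tested. The macrophage markers had positive differences on the diet in 11 of 11 cases, with a median of 0.75 (1.26 in B6 and 0.25 in D2), and none passed. Their sum was 11.69 to 14.03 in the fed arrays and 11.68 and 11.84 at week 0, and their part in the rise of Slc25a37 was not tested. The call was lost without the B6 or the D2 week 0 array, where the fit rested on the other strain alone (1.10 and 1.02). It was also lost without the B6 week 12 or the D2 week 4, 12 or 21 array (adjusted p 0.0502 to 0.0788, limma). Over all alternatives it ranged from 0.00305 to 0.227.

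Carriers of tricarboxylates and keto acids all had a positive difference (3 of 3, median 0.30) and none passed. When each array was instead centred on the tested genes, 2 of 3 carried a positive sign. Slc25a10 read 9.20 and 9.35 at week 0 and 9.29 to 9.77 in the fed arrays, each fed array above its own strain's week 0. The difference was 0.30 ± 0.13 (adjusted p = 0.263, limma). Slc25a11 differed by 0.30 ± 0.12 and Slc25a1 by 0.04 ± 0.16.

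The amino acid carriers all had a negative difference (7 of 7, median −0.32), again without a member that passed. Taken by strain, all 7 were negative in B6 (median −0.51), but 4 were negative and 3 positive in D2 (median −0.22). On the deposited scale 4 of the 7 were positive, with a median of 0.23. Slc25a22, the glutamate carrier 1, read 9.87 at week 0 and 8.70, 8.25, 8.16 and 8.60 in fed B6, and 9.25 at week 0 and 9.52, 8.60, 8.49 and 8.61 in fed D2. The D2 week 1 pool was the exception, above its week 0. The difference was −0.94 ± 0.29 (adjusted p = 0.135, limma), and −1.44 in B6 and −0.44 in D2 taken alone. With 1 array left out it ranged from −1.44 to −0.44, the ends being the single-strain values that remain without a week 0 array. It passed only without the D2 week 1 array (−1.07, adjusted p = 0.0460, limma). Slc25a15, the ornithine carrier of the urea cycle, read 11.28 and 11.35 at week 0, 11.37 in the D2 week 1 array and 10.68 to 10.91 in the other fed arrays. Its difference was −0.47 ± 0.15 (adjusted p = 0.143, limma), and −1.08 at its second, dimmer probe set. Slc25a44, a branched-chain amino acid carrier, differed by −0.32 ± 0.20, Slc25a12 by −0.25 ± 0.19 (0.19 at its second probe set above the filter), Slc25a38, the glycine carrier that feeds heme synthesis, by −0.17 ± 0.21, and Slc25a13 by −0.07 ± 0.21. Slc25a29, a basic amino acid carrier, differed by −0.59 ± 0.27. Its probe sets above the filter did not share a direction: −0.59, −0.32, 0.16, −0.21 and −1.09.

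Among nucleotide and phosphate carriers, Slc25a33, a pyrimidine nucleotide carrier, read 8.36 at week 0 in B6 and 7.27, 7.05, 8.22 and 7.25 afterwards, and 8.59 at week 0 in D2 and 7.52, 7.92, 7.63 and 7.86 afterwards. Every fed array lay below both week 0 arrays, with B6 week 12 close to them. The difference of −0.89 ± 0.25 did not pass (adjusted p = 0.116, limma). Slc25a3 (−0.01 ± 0.09) and Slc25a5 (−0.01 ± 0.10) had the smallest differences of their class at their brightest probe sets, and Slc25a4 differed by 0.13 ± 0.27. The 8 probe sets of Slc25a5 did not read alike: 4 lay between −0.04 and 0.00, and the others read −0.31, −0.53, −0.77 and −0.51.

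In the cofactor class, Slc25a42 lay below its week 0 level in 8 of 8 fed arrays, by −0.74 ± 0.18 (adjusted p = 0.0869, limma), with the values given above. Slc25a28 differed by −0.06 ± 0.14 and Slc25a39 by 0.05 ± 0.08. Of the uncoupling protein-like carriers, Slc25a14 read 3.73 and 2.61 at week 0 and 3.76 to 4.83 in the fed arrays. The fed and week 0 arrays did not overlap, B6 week 21 lying only just above B6 week 0. Its week 0 mean of 3.17 lay below the filter and its fed mean of 4.24 above it. It was thus kept through the fed arrays, and its difference of 1.07 (0.48 with a pseudocount of 16) is a description. Slc25a30 read 8.81 and 8.46 at week 0 and 6.57 to 8.93 in the fed arrays, a difference of −0.93 ± 0.36 (adjusted p = 0.223, limma), with 4 probe sets above the filter at −0.68 to −1.01.

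The carriers without a long-settled substrate differed in both directions and none passed. Slc25a48 read 4.34 and 3.47 at week 0 and 4.18 to 5.37 in the fed arrays, higher than its own strain's week 0 in 8 of 8. The difference was 0.96 ± 0.29 (adjusted p = 0.127, limma). Its D2 week 0 level lay below the filter, and with a pseudocount of 16 the difference shrank to 0.55 (0.68 in D2 alone). Slc25a34 read 5.94 and 6.40 at week 0 and 4.22 to 6.04 in the fed arrays, lower in 8 of 8, by −0.98 ± 0.38 (adjusted p = 0.222, limma). Slc25a45 read 7.51 and 7.34 at week 0 and 6.38 to 7.14 when fed, without overlap, by −0.53 ± 0.20 (adjusted p = 0.217, limma). Over the family, fed and week 0 arrays did not overlap in 4 of 36 carriers (11.1%; Slc25a14 and Slc25a37 upward, Slc25a33 and Slc25a45 downward), against 12.3% of all genes, of which 6.28% lay upward and 6.01% downward. Slc25a14 entered these counts only because its fed arrays lifted it over the filter. In 8 carriers (22.2%) all fed arrays moved one way from their week 0, against 21.1% of all genes.

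The diet comparison moved with the scaling, since both week 0 arrays were the dimmest. On the deposited scale the median of all genes tested shifted by 0.52 and that of the carriers by 0.34. There 12 of 36 carriers passed, all upward, beside 4949 of 11066 genes upward and 41 downward. With quantile normalisation 46 genes passed upward and 26 downward, and with each array centred on its median 276 and 37, at a shift of 0.16. Slc25a37 passed on each of these scales. On the deposited scale Slc25a48 passed too (1.35, adjusted p = 0.00695, limma; 0.127 with quantile normalisation).

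**Figure D3:**
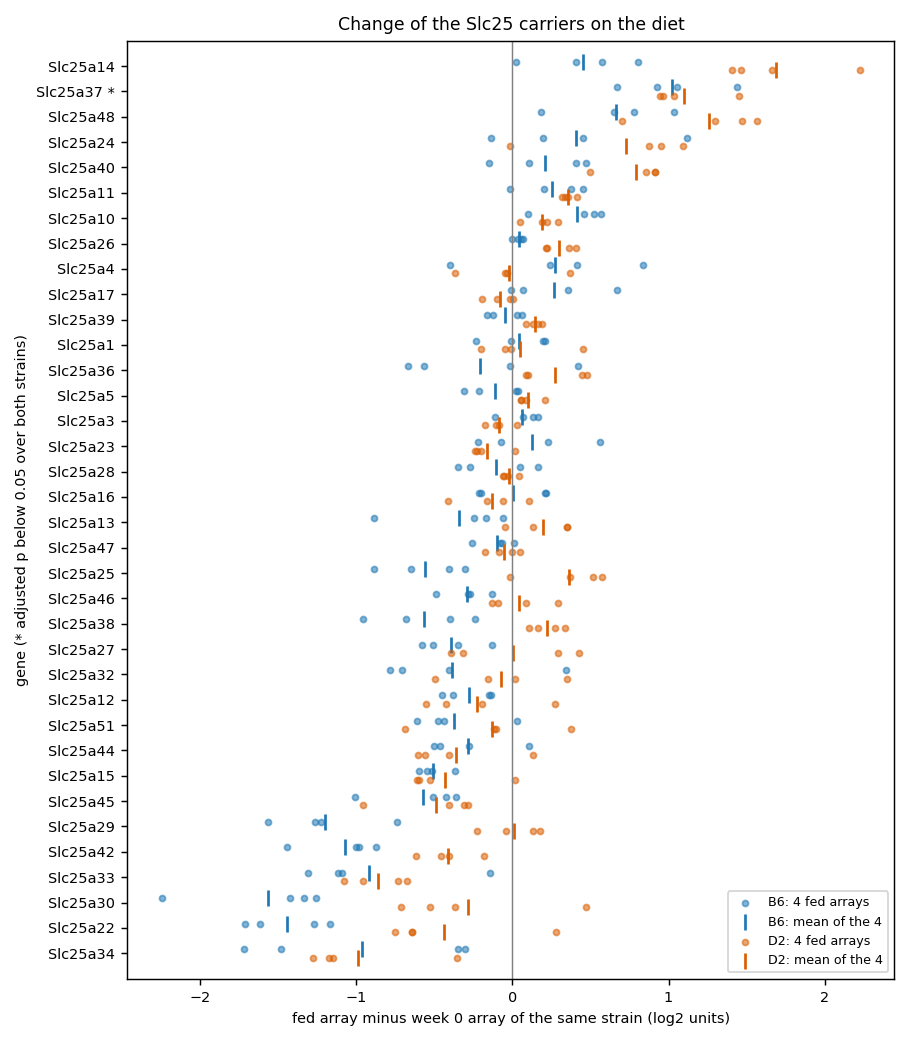
Change of each carrier above the filter from the week 0 array of its strain, in log2 units, with 1 point for each fed array, coloured by strain, and a vertical tick for the mean of the 4 fed arrays of a strain. The asterisk marks Slc25a37, whose 8 points all lie to the right of 0, while those of Slc25a33, Slc25a42, Slc25a34 and Slc25a45 all lie to the left.

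Within each strain, 4 fed arrays stood against a lone week 0 array, whose spread was taken to equal that of the fed arrays. In B6 no carrier passed in limma, against 0.118% of all genes (13), and 9 of 36 (25%) had an unadjusted p below 0.05, against 12.6% of all genes. The 5 largest differences were those of Slc25a30 (−1.57 ± 0.45, adjusted p = 0.243), Slc25a22 (−1.44 ± 0.36, 0.190), Slc25a29 (−1.20 ± 0.29, 0.183), Slc25a42 (−1.07 ± 0.23, 0.144) and Slc25a37 (1.02 ± 0.28, 0.230). Slc25a29 lay below its week 0 level of 6.61 in every fed B6 array, at 5.34, 5.05, 5.39 and 5.87. The 7 amino acid carriers all had a negative difference in B6, with a median of −0.51, against a median of −0.16 over the 36 carriers. On the deposited scale 4 of the 7 were positive (median 0.035), and the median over the carriers was 0.28, against 0.58 over all genes. With arrays centred on the tested genes the medians were −0.62 for the 7 and −0.37 for the 36.

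In D2 no carrier passed in limma either, against 0.118% of all genes (13), and 5 of 36 (13.9%) had an unadjusted p below 0.05, against 11.4% of all genes. The largest differences were those of Slc25a14 (1.69, a description as above), Slc25a48 (1.26 ± 0.40, 0.276), Slc25a37 (1.10 ± 0.28, 0.197), Slc25a34 (−0.99 ± 0.56) and Slc25a33 (−0.86 ± 0.37, 0.418). The carriers divided evenly, 18 higher and 18 lower, with a median of −0.01 (0.41 on the deposited scale, against 0.43 over all genes). Of the 7 amino acid carriers, 3 were higher and 4 lower in fed D2, with a median of −0.22. With each array centred on its median, 4 were higher and 3 lower (median 0.02).

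The difference between the strains' changes, D2 minus B6, passed in limma for no carrier and for 1 gene in all (0.00904%). An unadjusted p below 0.05 was found for 2 carriers (5.56%), against 6.08% of all genes. The sign was uneven: in 28 of 36 carriers (77.8%) the change was more positive in D2, against 47.2% of all genes, with a median of 0.20 (−0.02 over all genes). These differences share the week 0 arrays, in which 10 of 36 carriers were higher in D2 (median −0.18), against 53.4% of all genes. On the deposited scale the medians were 0.05 for the carriers and −0.16 for all genes.

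The largest of these differences were those of Slc25a30 (1.28 ± 0.64, adjusted p = 0.846, limma), Slc25a14 (1.23), Slc25a29 (1.21 ± 0.41), Slc25a22 (1.00 ± 0.51) and Slc25a25 (0.92 ± 0.36). Slc25a25 read 9.43 at week 0 and 9.12, 8.78, 9.03 and 8.54 in fed B6, and 9.06 at week 0 and 9.43, 9.57, 9.63 and 9.04 in fed D2. All fed B6 pools were below their week 0, and 3 of 4 fed D2 pools above theirs. Slc25a38 read 7.19 at week 0 and 6.79, 6.23, 6.95 and 6.51 in fed B6, and 6.69 at week 0 and 6.96, 6.80, 7.02 and 6.85 in fed D2. Its fed pools were all lower in B6 and all higher in D2, yet the difference of 0.79 ± 0.35 did not pass (adjusted p = 0.816, limma).

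**Figure D4:**
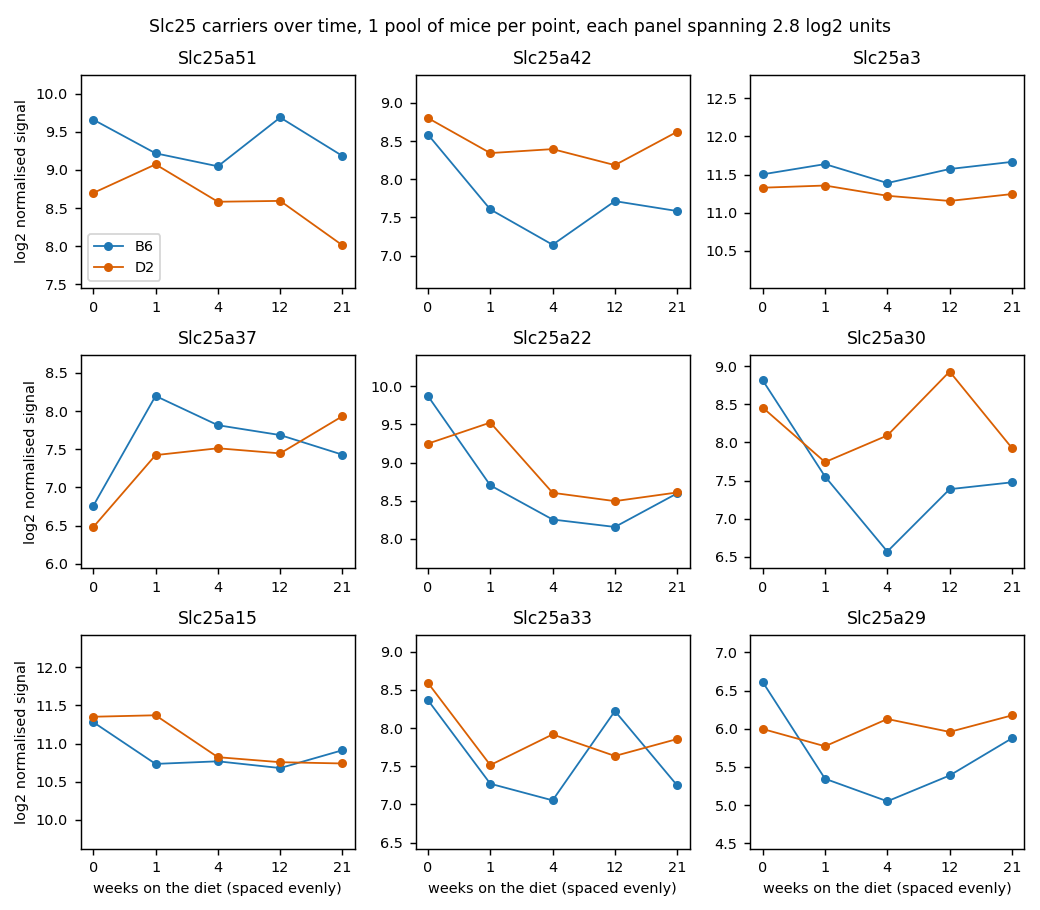
Log2 signal of single carriers against weeks on the diet, 1 line per strain and 1 pool of 5 mice per point, with every panel spanning 2.8 log2 units. Slc25a37 is higher in every fed pool than at week 0 in both strains, and Slc25a42 separates the strains in the fed arrays.

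Single arrays differed in how many carriers they held at an extreme. The B6 week 4 array had the lowest level of 12 of 36 carriers (33.3%), against 15.7% of all genes, and the highest of 3 (8.33%, against 15.3%). The 12 included Slc25a13 at 9.36, Slc25a38 at 6.23 and Slc25a30 at 6.57. The carriers' median deviation from their own means was −0.17 in that array, against −0.03 over all genes. The macrophage sum of 14.03 and the stellate sum of 11.31 in that array were the highest of the 10. Their part in the carriers' low levels was not tested.

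Across the 8 fed arrays, a slope on log2 of the week was fitted for each gene. No carrier and no other gene passed in limma (0%), and 5 carriers (13.9%) had an unadjusted p below 0.05, against 4.73% of all genes. The largest slopes per doubling of the time were those of Slc25a48 (−0.16 ± 0.06, adjusted p = 0.971, limma), Slc25a22 (−0.13 ± 0.06), Slc25a45 (−0.11 ± 0.05), Slc25a17 (−0.10 ± 0.04) and Slc25a34 (0.09). The sign of the Slc25a34 slope turned without the B6 week 1 array (−0.03, adjusted p = 0.994, limma), and it was 0.30 without the D2 week 1 array. Slc25a17 was highest in the B6 week 1 array, at 7.53, where 4 proliferation markers also summed highest, at 9.32 against 5.84 to 7.69 elsewhere, and the part of proliferating cells was not tested.

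Other genes of the same machinery were set beside the carriers. Carriers of the family that go by other symbols were above the filter in 3 of 5 cases (Mtch1, Mtch2 and Ucp3), with strain differences of 0.17 to 0.39 and none past the threshold. Of 14 genes that import carriers into the inner membrane, 12 had a positive strain difference (median 0.07), and none passed. Of 20 enzymes that use what the carriers move, 8 were higher and 12 lower in D2. The 1 enzyme that passed (5%, against 7.97% of all genes) was Pck2, the mitochondrial phosphoenolpyruvate carboxykinase, at −0.94 ± 0.17 (adjusted p = 0.0139, limma; lost without the B6 week 12, D2 week 12 or B6 week 21 array, up to 0.0576, and without the B6 week 4 and D2 week 12 arrays, 0.156). Of 15 regulators of mitochondrial biogenesis and oxidation, 11 had a positive difference and 1 passed (6.67%). Ppara, the nuclear receptor of fatty acid oxidation, was higher in D2 by 0.82 ± 0.18 (adjusted p = 0.0333, limma). Its call was lost with either array of weeks 0, 1, 4 or 21 left out (up to 0.0969), without a variance trend (0.0728) and with the mean of its probe sets (0.36, adjusted p = 0.318).

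On the diet, 17 of the 20 enzymes had a negative difference (median −0.10), against 5307 of 11061 genes (median 0.01), and none passed. The signs of the enzymes were not checked on the other scales. Of 16 other inner membrane transporters 7 had a positive and 9 a negative difference. Mpv17, an inner membrane channel protein, was the 1 of 16 that passed (6.25%, against 0.651% of all genes) and rose, by 0.88 ± 0.12 (adjusted p = 0.0154, limma), in 8 of 8 fed arrays. It lost its call without the B6 or the D2 week 0 array, where the fit rested on the other strain alone. No gene of these lists passed within a strain, in the difference between the strains' changes or in the trend.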

How the data were processed

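The deposited values were signal intensities on a linear scale, which the authors computed with GCOS (version not given), per the submitters' processing notes. Per the labels, RNA was extracted with Trizol and pooled from 5 mice per array. The members and lists were chosen with earlier results of these data known.

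Of 45101 probe sets, 64 controls, 932 with several symbols and 9160 without one were left out of the tests, and symbols were updated by gene identifier from RefSeq. All arrays were quantile normalised and analysed as log2(signal + 1.05), the 10th percentile of the deposited values. Each gene had its brightest probe set, kept where its mean lay above the 50th percentile (3.74). Models were fitted with limma (version 3.58.1; lmFit, then eBayes with a variance trend) under R 4.3.3, with data.table (version 1.17.8). Figures used Python 3.11.15 and matplotlib 3.10.9. The strain difference had week as a block (4 residual degrees of freedom), the diet change a strain term (7), the changes within strains and their difference 4 group means (6), and the trend a strain term (5). Week pairs the strains as the labels give it. Named carriers were those that passed, the 5 largest differences per comparison and 24 fixed liver carriers; list genes were those that passed. The fits were tested on simulated data.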

Additional observations from a re-analysis of the deposited data

Results flagged for a closer look

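In 6 of 72 groups of 4 fed arrays, 1 array stood apart from the other 3 by Dixon's criterion. Groups of 4 like normal values meet it in about 1 of 20 cases. The fed arrays are of different weeks, and the share over all genes was not computed. Slc25a15 was high at D2 week 1 (11.37, nearest 10.82), as were Slc25a22 (9.52, nearest 8.61) and Slc25a34 (6.04, nearest 5.25). At D2 week 12, Slc25a23 was high (8.61, nearest 8.39) and Slc25a40 low (4.85, nearest 5.21). Slc25a30 was low at B6 week 4 (6.57, nearest 7.39). Slc25a38 was lower than week 0 in all 4 fed B6 arrays and higher in all 4 fed D2 arrays, and the test of that difference (0.79) did not pass (adjusted p = 0.816, limma).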

How the results depend on the processing

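The number of carriers that passed changed with several choices. The strain difference called 3 carriers, but 1 with the mean of all probe sets of a gene, 0 without a variance trend, 0 without the B6 week 4 and D2 week 12 arrays (chosen after seeing the data), and 0 to 2 with 1 array left out. Without the filter the strain difference again called 3 of 43 carriers, against 749 of 18193 genes. There Slc25a3 was lost (adjusted p = 0.0848, limma) and Slc25a31 gained (2.39, 0.0112). The diet change called 1 carrier, but 12 on the deposited scale, 0 with the mean of all probe sets, 0 without a variance trend, 0 without those 2 arrays, and 0 to 3 with 1 array left out. A diet change fitted without a week 0 array rests on the other strain alone. The change in B6 called 0 carriers, but 3 of 36 on the deposited scale, against 1946 of 11066 genes. With 1 array left out, 0 carriers passed in B6, in D2, in the difference between the changes and in the trend. Without the replicate block of week, 2 carriers passed the strain difference and Slc25a42 did not (adjusted p = 0.0771, limma). The slope of Slc25a34 ranged from −0.029, without the B6 week 1 array, to 0.296, without the D2 week 1 array. Among all genes, the strain difference called 882, but 386 to 714 with 1 array left out and 209 without those 2 arrays. The diet change called 72, but 14 to 94 with 1 array left out, 313 with median centring, 4990 on the deposited scale and 22 with the mean of probe sets. The change in B6 called 13 genes, but 1946 on the deposited scale and 0 with a pseudocount of 16. With 1 array per strain and week, dim carriers near the filter and the difference between the changes have the least precision.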
